A study of Mus musculus with 8 samples.

Results

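Pigment synthesis and melanocortin signalling were examined through 8 genes in the striatum of mice with a heterozygous 16p11.2 deletion: Tyr, a, Pomc, Mc1r, Mc3r, Mc4r, Atrn and Mgrn1. They were matched by exact symbol among the 55032 genes of the deposited table, where agouti is written a. Tyr and a were chosen by their counts, which were higher in each 16p11.2+/- mouse than in each WT mouse. Their values are given as a description, and nothing is read from whether they were called in the tests of all genes. The other 6 genes are a ligand, receptors and modifiers of the same pathway. The lists of related genes were drawn up with earlier results of these data known.

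Striatum was taken from 4 WT and 4 16p11.2+/- female mice of B6/C57 background at P60 (postnatal day 60), frozen, and sequenced as 1 total RNA library per mouse. The 16p11.2+/- line was obtained from the Jackson Laboratory and lacks one copy of the mouse segment that matches human 16p11.2, through the germline and hence in all tissues. No treatment was given, and whether the WT mice were littermates is not given in the sources used here. Mice are named by the numbers on their labels, WT-1015, WT-1041, WT-1061 and WT-1063 against DF-1018, DF-1037, DF-1059 and DF-1062, where DF stands for the 16p11.2+/- mice. All 4 mice of the deletion group carry the same allele, so the deletion cannot be told apart from anything else that the line carries, on any chromosome.

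Tyrosinase, the product of Tyr, catalyses the rate-limiting step of melanin synthesis in melanocytes. In these cells MC1R responds to alpha-MSH, a peptide cut from POMC, and agouti is a secreted antagonist of the receptor that turns hair pigment from black to yellow with the help of attractin (Atrn) and the ubiquitin ligase mahogunin (Mgrn1). In the brain, MC3R and MC4R are the melanocortin receptors, known for the control of feeding and energy use by hypothalamic circuits. The standard C57BL/6 strain is black and homozygous for the nonagouti allele, in which agouti is barely expressed. Minigenes of tyrosinase and agouti have also been used as coat colour tags in vectors for chromosome engineering in mice, and whether the deletion allele carries either is not given in the sources used here.

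The reference sequence before the RefSeq start of both genes is shown, since they are the pair that is high together in the deletion mice. RefSeq promoters (build GRCm38.p6) were matched for 7 of the 8 genes, with no entry for Mc4r, and 250 bases before the start were searched. The window of Tyr is chr7:87493513-87493762 on the minus strand, and that of a is chr2:155013320-155013569 on the plus strand, both written 5′ to 3′. Capitals mark CATGTG, the core of the element bound by the melanocyte factor MITF.
Tyr: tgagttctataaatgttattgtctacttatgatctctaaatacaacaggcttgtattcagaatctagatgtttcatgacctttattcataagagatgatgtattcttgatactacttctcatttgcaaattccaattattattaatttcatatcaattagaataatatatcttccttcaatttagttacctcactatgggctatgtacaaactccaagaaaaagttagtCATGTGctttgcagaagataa
a: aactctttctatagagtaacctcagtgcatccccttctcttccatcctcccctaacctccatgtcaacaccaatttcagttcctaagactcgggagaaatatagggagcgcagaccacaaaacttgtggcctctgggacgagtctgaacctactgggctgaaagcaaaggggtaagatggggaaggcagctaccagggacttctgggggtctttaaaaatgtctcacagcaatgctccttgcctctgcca

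CATGTG, or CACATG on the other strand, was found in 12.3% of the 32851 RefSeq promoter windows of the same length. In Tyr it begins 21 bases before the start, and the promoter of Mc1r, the receptor of melanocytes, holds it on both strands. The letters were not in the windows of a, Pomc, Mc3r, Atrn or Mgrn1. The window of a lies inside its gene body in GENCODE M21 (154791402 to 155051012, 6 transcripts). Other starts of a were not searched. A match describes these letters only, and the sequence is that of the reference, not of the mice studied.

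Tyr (ENSMUSG00000004651) lies on chromosome 7 from 87424771 to 87493512 on the minus strand (GENCODE M21, GRCm38), and its exons share no base with another gene. Counts of Tyr were 4 in WT-1015, 7 in WT-1041, 4 in WT-1061 and 3 in WT-1063. In DF-1018, DF-1037, DF-1059 and DF-1062 they were 170, 147, 163 and 168. The groups were thus far apart, with a near-background signal in each WT mouse and a similar count in each deletion mouse.

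Per length and depth, the level of Tyr was 0.0405 ± 0.0166 FPKM (fragments per kilobase of exon and per library size; mean ± SD, n = 4) in WT and 1.44 ± 0.0935 FPKM (n = 4) in 16p11.2+/- striatum. Summed over the mice of a group and divided by library totals, the count was 35.8 times higher in the deletion mice. In 16p11.2+/- striatum Tyr stood at the 27.6th percentile of the 18294 genes tested, among which it was counted through its level in this group. Among the deletion mice its CPM (counts scaled to library size) differed by at most 1.20-fold, with a chi-square per degree of freedom of 0.661 against library totals, where 1 stands for counting error alone. Of 4247 genes with a mean CPM in 16p11.2+/- mice within 2-fold of that of Tyr, 13.2% had a smaller ratio of highest to lowest mouse, and the median ratio was 1.46.

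The gene a (ENSMUSG00000027596) lies on chromosome 2 from 154791402 to 155051012 on the plus strand. No count fell on it in any of the 4 WT mice. In DF-1018, DF-1037, DF-1059 and DF-1062 the counts were 68, 38, 48 and 68. Agouti was therefore read in each deletion mouse and in no WT mouse. With a floor of 3 counts over the WT group, its level per library total was at least 73.6-fold higher in 16p11.2+/- striatum, and with a floor of 3 counts in each WT library at least 18.4-fold higher. Both bounds cover counting error only.

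The level of a in the deletion mice was 2.995 ± 0.804 FPKM (n = 4), at the 42.8th percentile of the genes tested. It was 3.82, 2.12, 2.53 and 3.52 FPKM in DF-1018, DF-1037, DF-1059 and DF-1062, above Tyr in each of them. The ratio of a to Tyr per length was 2.43, 1.57, 1.79 and 2.46 in the same order. The ratio of their counts was below 1, at 0.40, 0.26, 0.29 and 0.40. The order by FPKM thus rests on the union exon length, 7108 bases for Tyr and 1169 for a. Which transcripts were read is not known from counts per gene. Thus a varied more than Tyr, by 1.85-fold in CPM between its lowest and highest mouse, with a chi-square per degree of freedom of 3.93. Among 3645 genes of like mean CPM the median ratio was 1.77, so its spread was near the middle of such genes.

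Part of the gene model of a overlaps other genes. Of its exon bases, 12.6% are shared with Raly, an RNA-binding protein gene on the same strand, and the gene body also spans Eif2s2, a translation initiation factor subunit. Raly was read at 16.5 ± 0.198 FPKM in WT and 15.8 ± 0.883 FPKM in 16p11.2+/- striatum (log2 fold change -0.09, SE 0.07). With Raly at this level in WT, a had no count there. How reads on shared bases were assigned is not given in the sources used here, so this does not tell whether Raly adds to a. Counts per gene do not tell a transcript of the gene at its own place from a transcript of a copy elsewhere in the genome.

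**Figure D1:**
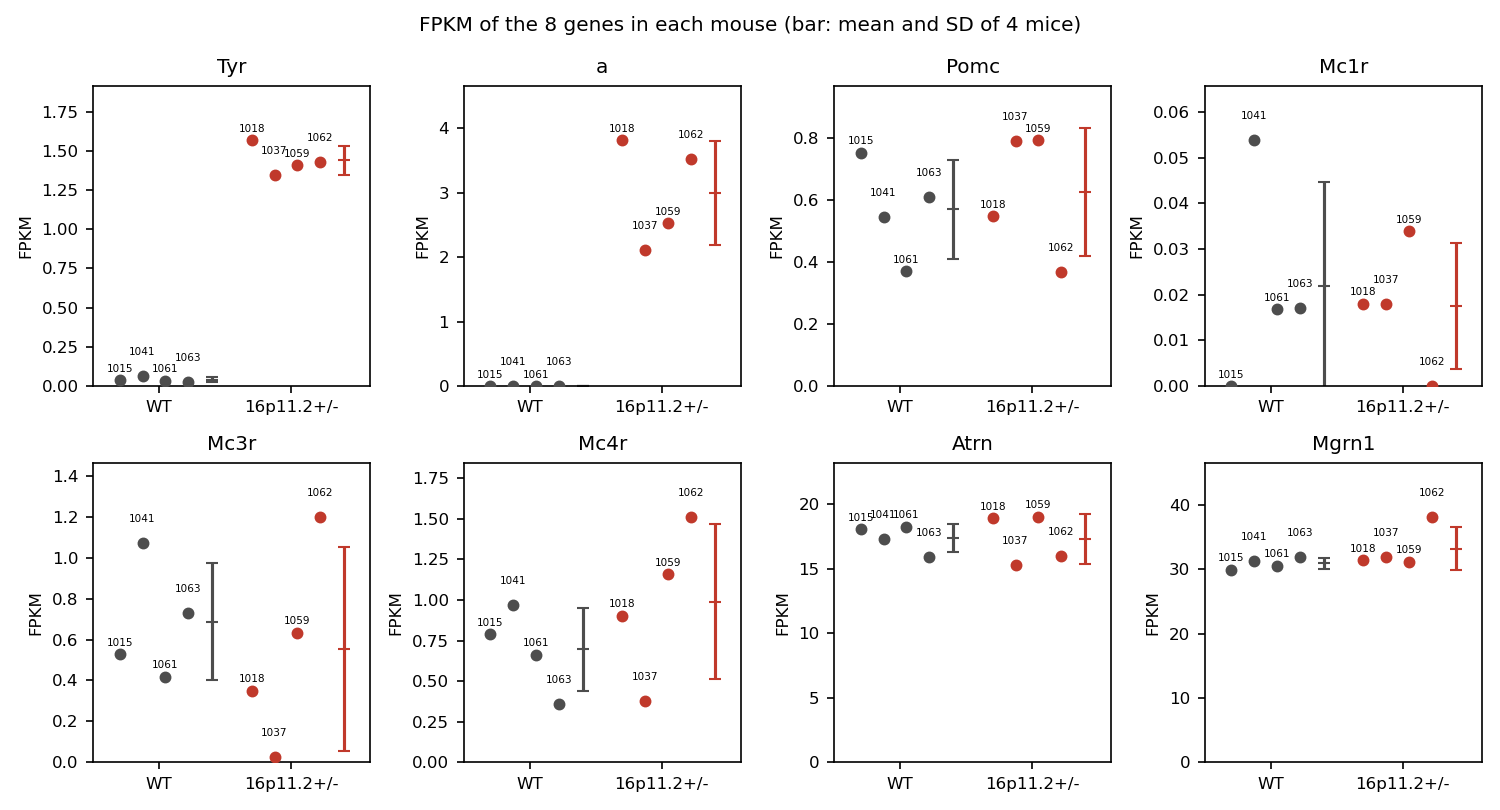
FPKM of each of the 8 genes (y axes, linear, one scale per gene) in the 4 WT and 4 16p11.2+/- mice. Points are mice with their numbers, and bars are mean and SD of 4 mice, cut at 0 for Mc1r. Tyr and a separate the groups, whereas the points of the other 6 genes overlap.

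Pomc (ENSMUSG00000020660, chromosome 12, 3954951 to 3960642), the precursor of alpha-MSH, was read at a low level with no sign of the pattern of Tyr. Its counts were 15, 11, 8 and 13 in the WT mice and 11, 16, 17 and 8 in the deletion mice, in the order of mice given above. The level was 0.569 ± 0.159 FPKM (n = 4) in WT and 0.625 ± 0.207 FPKM (n = 4) in 16p11.2+/- striatum. The groups overlapped, and the log2 fold change of 0.12 (SE 0.35, 95% interval -0.56 to 0.80) did not pass the test (edgeR quasi-likelihood, adjusted p = 0.945).

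Mc1r (ENSMUSG00000074037, chromosome 8, 123407107 to 123410744), the receptor of melanocytes, was near 0 in both groups. It had 0, 3, 1 and 1 counts in the WT mice and 1, 1, 2 and 0 counts in the deletion mice, too few to enter the edgeR test. An exact two-sided permutation test of its log2 CPM gave p = 0.971 (4 against 4 mice), and at this depth a difference was not detectable. Of its exon bases, 17.9% are shared with the antisense gene Gm38092, and the strand setting of the counting is not given in the sources used here.

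Mc3r (ENSMUSG00000038537, chromosome 2, 172248492 to 172251114), a brain melanocortin receptor, had 21, 43, 18 and 31 counts in the WT mice. In the deletion mice it had 14, 1, 27 and 52 counts, so the single lowest and the single highest mouse both belonged to this group. The level was 0.687 ± 0.286 FPKM (n = 4) in WT and 0.552 ± 0.498 FPKM (n = 4) in 16p11.2+/- striatum. The log2 fold change was -0.34 (SE 0.70, 95% interval -1.72 to 1.03, edgeR adjusted p = 0.924), and it was 0.05 without DF-1037 and -0.996 without DF-1062.

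Mc4r (ENSMUSG00000047259, chromosome 18, 66857704 to 66860506), the other receptor of the brain, had 33, 41, 30 and 16 counts in the WT mice and 38, 16, 52 and 69 counts in the deletion mice. Its level was 0.696 ± 0.258 FPKM (n = 4) in WT and 0.989 ± 0.478 FPKM (n = 4) in 16p11.2+/- striatum. The groups overlapped, and the log2 fold change of 0.48 (SE 0.42, 95% interval -0.35 to 1.31, edgeR adjusted p = 0.859) did not pass the test. DF-1062 was the highest of the 8 mice for both Mc3r and Mc4r, and DF-1037 was the lowest for Mc3r.

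Tissue markers also stood apart in mice that were highest or lowest for these receptors. WT-1063, the lowest for Mc4r at 0.359 FPKM, had 6150 CPM of 6 choroid plexus genes, against at most 705 CPM in the other 7 mice. The summed level of 8 hypothalamic genes was 131 CPM in DF-1062, with 954 counts of Oxt (oxytocin) and 567 of Avp (vasopressin), against at most 11.4 CPM in the other 7 mice. The summed level of 8 genes of medium spiny neurons, the main neurons of the striatum, was 659 CPM in DF-1062 and 909 CPM in DF-1037, against 2369 to 4082 CPM in the other 6 mice. Their part in the receptor values was not tested. In bulk tissue, fewer cells of a type and less RNA per cell cannot be told apart.

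Atrn (ENSMUSG00000027312, chromosome 2, 130906495 to 131030333) encodes attractin, the accessory receptor through which agouti acts on pigment and whose loss causes the mahogany coat colour and spongiform changes in the brain. Its levels in the WT mice were 18.1, 17.3, 18.2 and 15.9 FPKM. In the deletion mice they were 18.9, 15.3, 19.0 and 16.0 FPKM. The means, 17.4 ± 1.07 and 17.3 ± 1.94 FPKM (n = 4 each), were nearly equal, with a log2 fold change of -0.02 (SE 0.11, 95% interval -0.24 to 0.19, edgeR adjusted p = 0.965).

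Mgrn1 (ENSMUSG00000022517, chromosome 16, 4886249 to 4938296) encodes mahogunin, a ubiquitin ligase that acts on melanocortin receptors and whose loss darkens the coat. It had the highest level of the 8 genes in each mouse, with 29.9, 31.3, 30.6 and 31.9 FPKM in the WT mice. In the deletion mice it had 31.5, 31.9, 31.2 and 38.2 FPKM, so DF-1062 stood apart from the other 7 mice, which lay close together. The mean was 30.9 ± 0.868 FPKM (n = 4) in WT and 33.2 ± 3.34 FPKM (n = 4) in 16p11.2+/- striatum. The log2 fold change of 0.08 (SE 0.07, 95% interval -0.06 to 0.22) did not pass the test (edgeR adjusted p = 0.860; exact two-sided permutation p = 0.0571), and it was 0.04 without DF-1062.

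Over all 18294 genes tested, 20 (0.109%) were called at an adjusted p under 0.05 (edgeR), 3 (0.0164%) higher and 17 (0.0929%) lower in 16p11.2+/- striatum. The 3 higher ones include Tyr and a, which the choice of these genes fixed and from which nothing is read. The gene a was no longer among them when DF-1018, DF-1059 or DF-1062 was left out, with the thalamus covariate, or without WT-1063, DF-1037 and DF-1062 together. Nothing is read from this either, since a was chosen by the same counts. Without regard to adjustment, 790 genes (4.32%) had a p under 0.05. The CPM of 208 genes (1.14%) was higher in each deletion mouse than in each WT mouse, and that of 313 genes (1.71%) was lower. Of the 6 genes not chosen by their values, 5 were tested and none was called, and none of the 6 separated the groups.

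**Figure D2:**
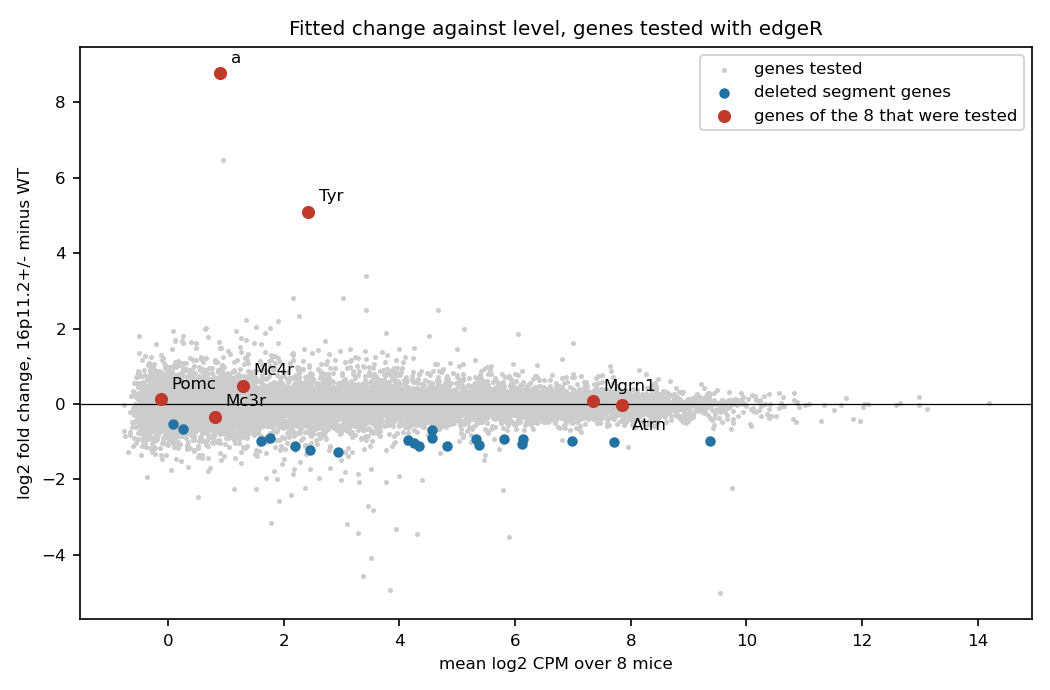
Log2 fold change, 16p11.2+/- minus WT (y axis), against mean log2 CPM over 8 mice (x axis) for the 18294 genes tested with edgeR. Red points are the 7 genes tested of the 8, blue points are genes listed for the deleted segment, and gray points are all others. Tyr stands at 5.10 (SE 0.25) and a at 8.78, which depends on the prior count since WT has no count, and the other 5 red points stand between -0.34 and 0.48.

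In order of mean level, WT striatum had Mgrn1, Atrn, Mc4r, Mc3r, Pomc, Tyr, Mc1r and a, in FPKM. The ranges over mice overlapped between Mc4r and Mc3r, between Mc3r and Pomc, between Tyr and Mc1r and between Mc1r and a. In 16p11.2+/- striatum the order was Mgrn1, Atrn, a, Tyr, Mc4r, Pomc, Mc3r and Mc1r. Here a and Tyr stood above the brain receptors on average, although the range of Tyr overlapped that of Mc4r because Mc4r reached 1.51 FPKM in DF-1062. The ranges of Mc4r and Pomc, of Pomc and Mc3r and of Mc3r and Mc1r overlapped too.

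The deletion was read directly in the same libraries. The 24 symbols listed for the deleted segment hold 25 gene rows, of which 22 were tested, and all 22 had a log2 fold change below 0, with a median of -0.98. Their summed level was 1871 to 1940 CPM in WT and 914 to 1016 CPM in 16p11.2+/- mice. Tyr lies on the same chromosome, and its end is 39.2 Mb before the first listed gene of the segment. Between 15125051 and 16523429 reads were counted per library. In WT-1063, DF-1018, DF-1037 and DF-1062 a sum of 8 thalamus genes stood at 616 to 1113 CPM, against 105 to 149 CPM in the other 4 mice, and WT-1063 also had 6150 CPM of 6 choroid plexus genes.

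Beside these marker levels, DF-1018 and DF-1059, the deletion mice high in genes of medium spiny neurons, had 170 and 163 counts of Tyr and 68 and 48 counts of a. DF-1037 and DF-1062, low in these genes, had 147 and 168 counts of Tyr and 38 and 68 counts of a. With the 3 libraries WT-1063, DF-1037 and DF-1062 left out, the log2 fold change of Tyr was 5.02 (SE 0.28), and with the thalamus score as a covariate it was 5.23 (SE 0.26). The fitted value of a was 8.87 (SE 0.76) and 8.76 (SE 0.71) in the same fits, against 8.78 (SE 0.60) in the main fit. In both of these alternatives a was no longer past the threshold, from which nothing is read, since its counts chose it. These values are a description, and the part of tissue in the levels of Tyr and a was not tested.

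Melanocyte genes were low in both groups. The summed level of 6 of them (Tyrp1, Dct, Pmel, Mlana, Slc45a2 and Oca2) was 1.497 to 15.7 CPM in WT and 1.42 to 3.03 CPM in 16p11.2+/- striatum, where Tyr alone stood at 9.59 to 11.5 CPM. The summed level of 4 keratinocyte genes was 13.9 to 27.8 CPM in WT and 13.9 to 20.8 CPM in 16p11.2+/- mice. Nearly all of it came from Lhx2, a transcription factor gene also expressed in brain, with 216 to 426 counts per mouse, while Krt5 and Krt71 had no count in any mouse and Krt14 had at most 2. Of 6 pituitary genes, Fshb and Cga had no count in any mouse, and the sum of the list was 3.17 to 6.97 CPM in WT and 4.65 to 5.87 CPM in the deletion mice.

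**Figure D3:**
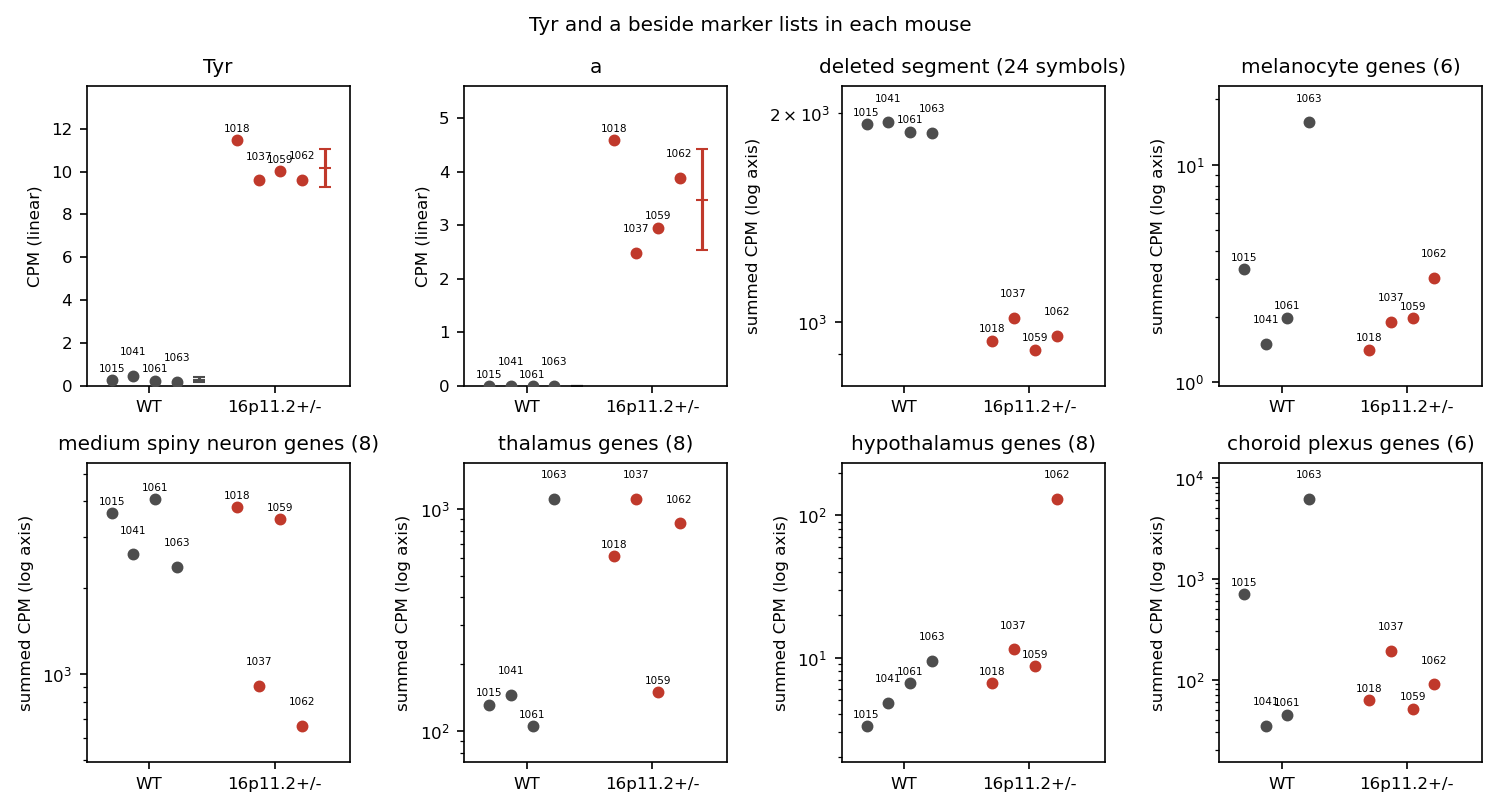
CPM of Tyr and a (linear axes, bars are mean and SD of 4 mice) and summed CPM of 6 lists (log axes) in each mouse, with mouse numbers above the points. Tyr, a and the deleted segment split the mice by genotype, whereas the tissue lists split them otherwise, with DF-1037 and DF-1062 low in medium spiny neuron genes.

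The enzymes and structural proteins that work with tyrosinase in the melanosome, the organelle in which melanin is made, were read next. Of 34 genes listed, 25 were tested and none was called by edgeR. An unadjusted p under 0.05 was seen for 2 of them (8.0%, against 4.32% of all genes), and 13 had a log2 fold change above 0 and 12 below 0. The median was 0.01, and that of all genes was -0.01.

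Tyrp1, a melanosomal enzyme related to tyrosinase, had 0, 0, 0 and 5 counts in the WT mice and 2, 2, 1 and 30 counts in the deletion mice, so most of its reads came from DF-1062. Dct, the third enzyme of this family, had 6, 10, 15 and 21 counts in WT and 3, 10, 6 and 5 counts in the deletion mice. Its log2 fold change of -1.12 (SE 0.47) was the lowest of the list and did not pass the test (edgeR adjusted p = 0.859). In neither relative of Tyr did the groups separate.

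Pmel, which forms the fibrils on which melanin is laid down, had 2 to 11 counts per WT mouse and 6 to 13 per deletion mouse. Mlana, another melanosome protein, had at most 2 counts in any mouse. The transporter gene Slc45a2 had 1 to 7 counts in WT and 0 to 9 counts in 16p11.2+/- mice. Oca2, the pink-eyed dilution gene, had 35, 3, 2 and 211 counts in WT and 0, 4, 3 and 1 counts in the deletion mice, with its reads concentrated in WT-1063, the library rich in choroid plexus genes. None of these 4 genes passed the filter on counts, so none was tested.

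Mitf, the master transcription factor of melanocytes and also expressed elsewhere, had a log2 fold change of -0.38 (SE 0.24), the second lowest. The largest values of the list were those of Mlph (0.58, SE 0.46) and Rab27a (0.49, SE 0.25), which carry melanosomes along actin with myosin. Bloc1s6, a subunit of a complex that builds lysosome-related organelles, stood at 0.23 (SE 0.08, unadjusted p = 0.0173, edgeR adjusted p = 0.859). It and Ap3d1, an adaptor subunit, were the 2 genes of the list whose CPM was higher in each deletion mouse than in each WT mouse, which is 8.0% of those tested, against 1.14% of all genes.

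On the melanocortin side, 24 of 28 listed genes were tested and none was called by edgeR. Cartpt was called by DESeq2. Of the 24, 2 had an unadjusted p under 0.05 (8.33%, against 4.32% of all genes), 11 had a log2 fold change above 0 and 13 below 0, and the median was -0.03. Agrp, the brain relative of agouti and antagonist of MC3R and MC4R, had 20, 34, 31 and 26 counts in WT and 18, 32, 41 and 34 counts in the deletion mice. Its log2 fold change was 0.13 (SE 0.27), and its groups overlapped, unlike those of a.

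The remaining receptors were nearly absent. Mc2r, the ACTH receptor, had 2, 1, 0 and 0 counts in WT and none in the deletion mice, and Mc5r, known from exocrine glands, had at most 8 counts in any mouse. Mrap2, an accessory protein of MC4R, had 69, 99, 127 and 202 counts in WT and 130, 99, 236 and 462 counts in the deletion mice (log2 fold change 0.84, SE 0.46, edgeR adjusted p = 0.859). The highest mouse was again DF-1062.

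The enzymes that process POMC had log2 fold changes near 0. Pcsk1 and Pcsk2, the prohormone convertases, were at 0.08 (SE 0.27) and -0.19 (SE 0.12), and Cpe, the carboxypeptidase that trims their products, was at 0.02 (SE 0.13). Cpe was read at 581 ± 47.7 FPKM in WT and 599 ± 102 FPKM in 16p11.2+/- striatum. These enzymes process many neuropeptides besides POMC.

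The largest log2 fold change of the melanocortin list was that of Cartpt, the precursor of the CART peptides that are made beside POMC in the arcuate nucleus and are also made in striatum. It had 8, 38, 26 and 25 counts in WT and 69, 80, 67 and 299 counts in the deletion mice, so the groups did not overlap. Of the 24 genes tested, 2 (Cartpt and Sdc3) were higher in CPM in each deletion mouse than in each WT mouse, and 1 (Creb1) was lower. Over all genes the shares were 1.14% and 1.71%. The value was 2.33 (SE 0.58) with an edgeR adjusted p of 0.859, and 2.35 with a DESeq2 adjusted p of 0.0257. Without DF-1062, the mouse rich in hypothalamic genes, it was 1.602, and in the alternatives other than DESeq2 the adjusted p was 0.516 to 0.9999.

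Gnas encodes the stimulatory G protein subunit through which melanocortin receptors act. It had 227, 317, 258 and 360 counts in WT and 265, 342, 483 and 1217 counts in the deletion mice. Its level was low, at 1.65 ± 0.321 FPKM in WT and 3.20 ± 2.30 FPKM in the deletion mice, against 141 FPKM for Adcy5 in WT. The log2 fold change of Gnas was 0.91 (SE 0.40, edgeR unadjusted p = 0.0482, adjusted p = 0.859). Which transcripts of Gnas were read is not known from counts per gene. This log2 fold change is therefore not read as that of the subunit. Lepr, the leptin receptor, had the lowest value (-1.73, SE 0.85), with 325 counts in WT-1063 and 19 to 61 in the other 7 mice. Adcy5, the main adenylyl cyclase of the striatum, was next (-0.34, SE 0.43), with 6226 and 6002 counts in DF-1037 and DF-1062 and 13203 to 20382 in the other 6 mice. In each of these genes the mice that stood apart were those whose tissue markers stood apart, and the part of tissue in the values was not tested.

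**Figure D4:**
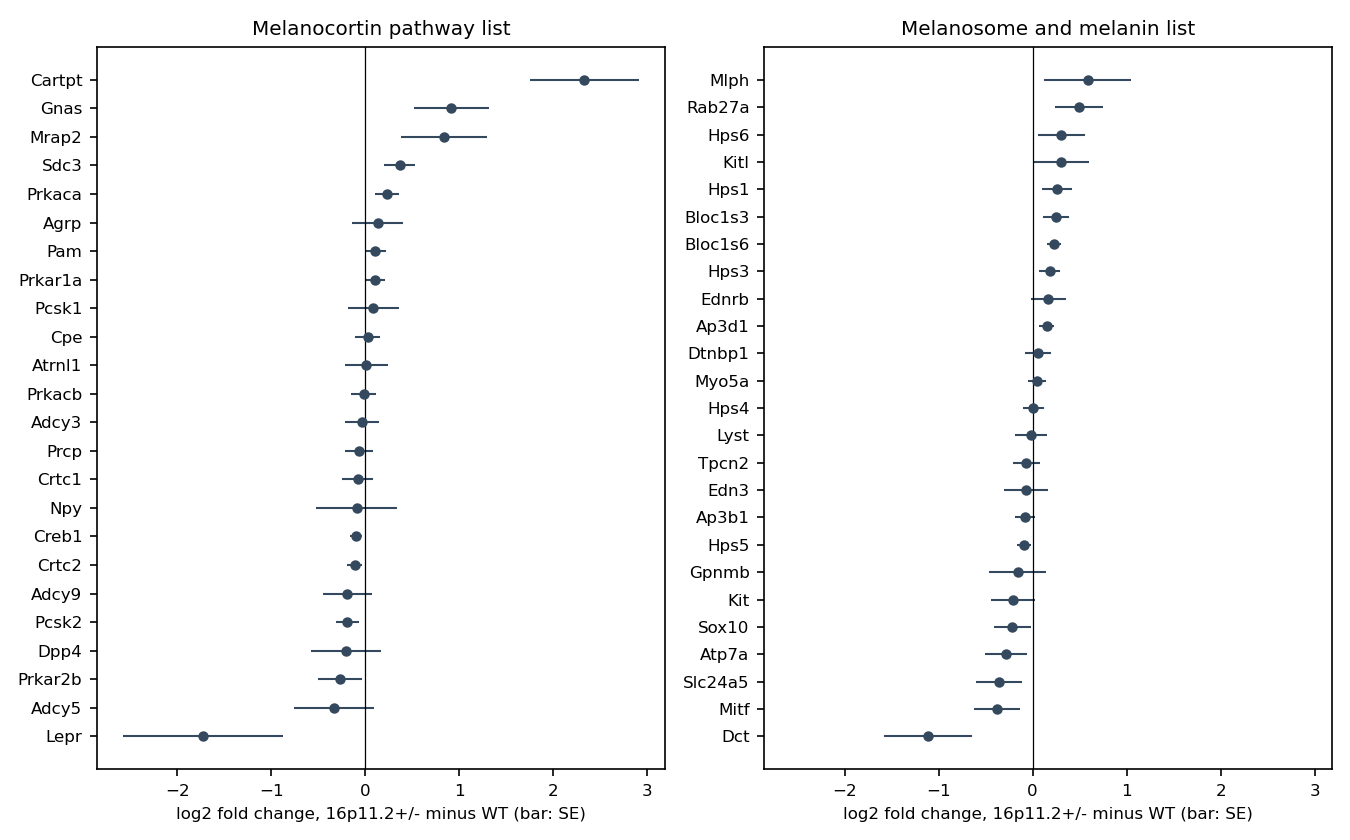
Log2 fold change, 16p11.2+/- minus WT (x axes), of the tested genes of the melanocortin list (24 genes) and of the melanosome and melanin list (25 genes), ordered by value. Points are edgeR estimates and bars are SE. Most genes lie near 0, Cartpt at 2.33 and Lepr at -1.73 lie farthest out. None was called by edgeR, and Cartpt was called by DESeq2.

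The genes around Tyr and a on their chromosomes were then read, to see whether the high counts extended to neighbours. Within 1 Mb of Tyr 32 genes are annotated and 5 were tested. All 5 had a log2 fold change below 0, from -0.72 to -0.12, as did 9484 of all 18294 genes. None was called, where 0.109% of all genes were. The CPM of 1 of the 5 was lower in each deletion mouse than in each WT mouse, against 1.71% of all genes. The nearest tested gene on one side was Grm5, a glutamate receptor gene 90.7 kb away, at -0.24 (SE 0.26). On the other side it was Folh1, a carboxypeptidase gene 649 kb away, at -0.12 (SE 0.30). Gm44847, a gene of unknown function, had the 1 unadjusted p under 0.05 (-0.65, SE 0.27, edgeR unadjusted p = 0.0415). It and Gm44927, another of the 5, lie inside the gene body of Grm5 on the same strand. The 5 genes are thus not 5 separate loci, and whether these reads belong to Grm5 was not tested.

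Within 1 Mb of a 79 genes are annotated and 34 were tested, with log2 fold changes of -0.25 to 0.40 and a median of 0.06, and none was called. Eif2s2, inside the gene body of a, was at -0.03 (SE 0.09). Ahcy, which hydrolyses S-adenosylhomocysteine, lies 8.30 kb from a and was at 0.22 (SE 0.13). Chmp4b, of the membrane scission machinery, lies 96.6 kb away on the other side and was at -0.04 (SE 0.07). Thus none of the 39 tested neighbours of both genes was called, where 0.109% of all genes were. Of these neighbours, 1 (2.56%, against 4.32% of all genes) had an unadjusted p under 0.05.

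**Figure D5:**
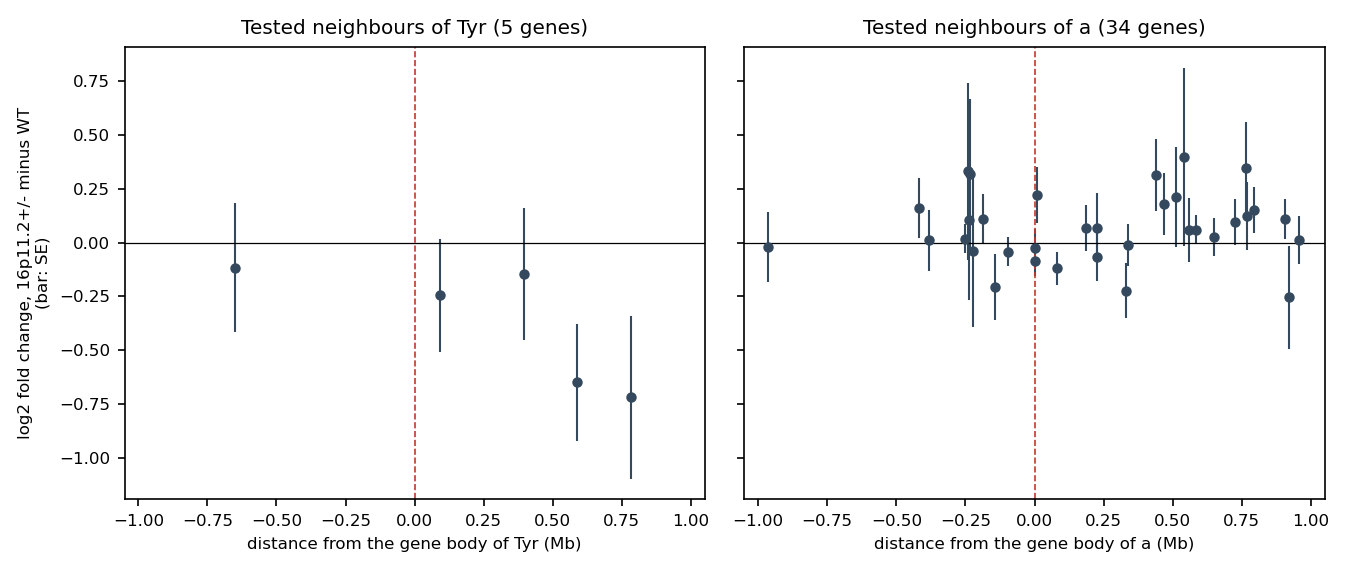
Log2 fold change, 16p11.2+/- minus WT (y axis, bars are SE), of tested genes within 1 Mb against distance from the gene body in Mb (x axes), for Tyr (5 genes) and a (34 genes). The dashed line marks the gene itself, which is not plotted, and all points lie between -0.72 and 0.40.

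Finally, all tested genes were ranked by Pearson's r of their log2 CPM with that of Tyr over the 8 mice, as a description only. Since Tyr splits the mice by genotype, a high or low r mainly follows that split, and the points share their libraries. The gene a was chosen by the same split, and its WT values rest on the prior count, so nothing is read from its place. The most like were a (r = 0.992), an unannotated locus (0.988), Gm6483 (0.943), Gm16057 (0.923) and Gm340 (0.919). The unannotated locus, for which the deposited table gives no symbol, had 1, 0, 1 and 0 counts in WT and 58, 45, 68 and 55 counts in the deletion mice. It was one of the genes called higher by edgeR, and no position was used for it here. The functions of the other 3 are not known well enough to be given.

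The least like were Ppp4c (r = -0.997), Aldoa (-0.993), Sez6l2 (-0.990), Cd2bp2 (-0.987) and Bola2 (-0.987). Ppp4c, a phosphatase subunit gene of the deleted segment, had 385, 362, 434 and 414 counts in WT and 176, 188, 198 and 225 counts in the deletion mice. Aldoa, the glycolytic aldolase and also a gene of the deleted segment, had 13372 to 14561 counts per WT mouse and 6587 to 7716 per deletion mouse. Sez6l2 is listed for the segment too, whereas Cd2bp2 and Bola2 are not on that list. Thus the genes that ran most against Tyr were lower in each deletion mouse. The gene a, chosen by this split, and the unannotated locus ran with Tyr and were at or near 0 in WT.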

How the data were processed

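RNA sequencing counts of striatum from 8 mice, 4 per genotype, were analysed. Reads were trimmed, aligned with Hisat2 and assigned to genes with Htseq-count by the authors, who deposited raw counts per mouse. The submitters' processing notes instead name Bowtie 0.12.2 and the builds mm8 and mm9, and the annotation and strand setting are not given in the sources used here. The deposited FPKM is the count over gene length and library total, and the length implied equals the union exon length of GENCODE M21 (GRCm38) for 96.4% of 23995 genes, so positions were taken from GENCODE M21. The authors' comparison with DESeq2, a table of group means, log2 fold changes and p-values, and their summary of FPKM in bins were not used.

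The quasi-likelihood test of edgeR 4.0.16 (R 4.3.3) was applied to the counts after TMM scaling and filterByExpr (at least 10 counts, total of at least 15), with Benjamini-Hochberg adjustment and a threshold of 0.05. The 586 rows with no gene symbol hold 0.509% of the counts. They were kept, since they are loci and not totals. Standard errors are the log2 fold change over the root of F, and CPM used TMM-scaled library sizes, with a prior count of 2 for log2 CPM. Log2 CPM was also compared by exact two-sided permutation over the 70 assignments of mice, for which the smallest p is 0.0286. Intervals are at 95%. Libraries of 15125051 to 16523429 counts left 18294 genes to test, and the code was tested on simulated data.

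The members and lists were chosen with earlier results of these data known. The genes named were the 8 genes, each listed gene past the threshold, fixed receptors, ligands and pigment genes, the 2 tested genes at each end of each list, the nearest tested gene on each side of Tyr and a, and the 5 genes most and the 5 least like Tyr. Bloc1s6, Ap3d1, Sdc3, Creb1, Gm44847, Eif2s2 and Raly fall outside this rule and were chosen after their values were seen. Alternatives were DESeq2 1.42.0, limma 3.58.1 on log2 FPKM, other factors and filters, a thalamus covariate and each mouse left out. The medium spiny neuron covariate and leaving out 3 libraries together were chosen after seeing the data.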

Additional observations from a re-analysis of the deposited data

Results flagged for a closer look

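In 33 groups of 4 mice, the mouse farthest out was set against Dixon's critical value, and 2 groups held a mouse past it, where chance flags about 1 in 20. In 16p11.2+/- striatum the level of Mgrn1 in DF-1062 was 38.2 FPKM, against 31.2 to 31.9 FPKM in the other 3 mice, a gap of 0.900 of the range. In WT striatum the thalamus score (mean log2 CPM of 8 genes) of WT-1063 was 6.57, against 3.38 to 3.60 in the other 3 mice, a gap of 0.931 of the range.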

How the results depend on the processing

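No paired analysis was made, because no litter or other pairing of WT and 16p11.2+/- mice is given in the sources used here. The number of genes called, 20 by edgeR, was 31 by DESeq2 (5 higher and 26 lower) and 8 to 18 with 1 mouse left out. Of the 8 genes, 2 were called (Tyr and a, by which they were chosen), 0 with at least 10 counts required in every mouse, a filter that removed both, 1 with the thalamus covariate or with 3 libraries left out, and 1 to 2 with 1 mouse left out. The gene lost in these fits was a, and among single mice it was lost without DF-1018, DF-1059 or DF-1062. The number called in the melanocortin list, 0 by edgeR, was 1 by DESeq2 (Cartpt). In the melanin list and among the neighbours 0 genes were called by edgeR and under each of the 18 alternatives, with 2 and 1 genes at an unadjusted p under 0.05. The log2 fold change of Mc3r reversed to 0.055 without DF-1037. That of Pomc reversed to between -0.035 and -0.013 without WT-1061, DF-1037 or DF-1059. That of Atrn reversed to 0.074 with the thalamus covariate, 0.11 with the medium spiny neuron covariate, 0.090 with 3 libraries left out, and 0.0078 to 0.047 without WT-1015, WT-1061, DF-1037 or DF-1062, and the cause was not tested. With 1 mouse left out, log2 fold changes ranged from 4.94 to 5.398 for Tyr, 8.64 to 8.92 for a, -0.996 to 0.055 for Mc3r, 0.24 to 0.75 for Mc4r, -0.035 to 0.33 for Pomc, -0.078 to 0.047 for Atrn and 0.04 to 0.11 for Mgrn1. On log2(FPKM + 1), which shrinks low genes, Tyr was at 1.23 and a at 1.98. The lower bound of the fold of a was 18.4 with 3 counts set in each WT library. Depth limits Mc1r, with at most 3 counts per mouse, and the WT level of Tyr.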
